A study of Mus musculus with 4 samples.

Results

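The cells described here were macrophages of mouse perigonadal white adipose tissue (gWAT) in which RNA of Timd4 was detected. Timd4 encodes TIM4, a receptor for phosphatidylserine on the surface of dying cells. A cell was a member when it held at least 1 unique molecular identifier (UMI, 1 counted RNA molecule) of Timd4 and at least 1 of C1qa or C1qb, and none of Gata6, Mki67 or Top2a. Of 21388 cells that passed the quality limits, 641 (3.00%) met this gate. The choice used measured values, so the levels of those 6 genes are given below as a description and support nothing.

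The 4 libraries came from wild-type (WT) mice or from mice with a conditional knockout (CKO) of BLIMP1, the transcriptional repressor encoded by Prdm1, on a normal diet or a high-fat diet (HFD). Each combination of genotype and diet was 1 library of 10x Genomics Chromium 3′ single-cell RNA. All 4 were prepared from live cells sorted as CD45+, Lin-, CD11b+ and CD64+, so every group shared that gate. The driver of the knockout, the strain, age and number of the animals, and the length of feeding are not stated in the labels used here. With 1 library in each group, no difference between diets or genotypes has a replicate check, and a group cannot be told apart from its library. The gated cells numbered 183 in the WT normal-diet library, 307 in the CKO normal-diet library, 22 in the WT HFD library and 129 in the CKO HFD library. Values given as 4 in a row below follow that order.

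Macrophages that carry TIM4 are known in many tissues as long-lived residents that maintain themselves locally with little input from blood monocytes. In fat they are commonly found along vessels together with LYVE1, a hyaluronan receptor, and CD163, the scavenger receptor for haemoglobin bound to haptoglobin. Obese fat is known to gain a second kind of macrophage, derived from monocytes, which takes up lipid and expresses Trem2, Cd9, Lpl and fatty acid-binding proteins. TIM4 binds phosphatidylserine and tethers the dying cell, while engulfment and signalling are left to partner receptors such as MERTK and integrins.

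The WT HFD library stood apart from the rest before any gene was compared. Its kept cells had a median of 14492.5 UMIs, against 3923 to 4092 in the other 3 libraries, and 400 of its barcodes exceeded the limit of 10% mitochondrial UMIs, against 7 to 23. Its 22 gated cells had a median of 17365.5 UMIs, and those of the WT normal-diet, CKO normal-diet and CKO HFD libraries had medians of 4628, 3893 and 3726. Summed over gated cells, the libraries gave 1175828, 1901900, 434345 and 661346 UMIs, which set the precision of every level below. No pair of libraries shared more than 12 of the 21867 deposited barcodes. Prdm1, the targeted gene (chromosome 10, 44437177 to 44528501), gave 28, 50, 12 and 9 UMIs in gated cells, or 23.8, 26.3, 27.6 and 13.6 CPM (UMIs of a gene scaled to a common total of UMIs per cell set), and 27.2, 31.1, 23.5 and 23.3 CPM in cells of the same gate without Timd4. The levels of WT and CKO gated cells overlapped within counting error. A 3′ tag outside the deleted part checks nothing about the deletion, and the labels used here do not name the deleted exons.

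Timd4 (chromosome 11, 46810800 to 46844332, plus strand) was detected in 833 kept cells. The gate removed 64 of them for lack of C1q RNA, 16 for Gata6, which marks macrophages of the serous cavities, and 117 for Mki67 or Top2a, 5 of these 117 also holding Gata6. Membership rested on little RNA: 476 of the 641 cells (74.3%) had a single Timd4 UMI, and the pooled Timd4 level was 227, 229, 117 and 251 CPM. Outside C1q-positive cells, detection was rare in lymphoid or fibroblast-type cells and more frequent in cells with dendritic genes. Among cells without C1q RNA that showed at least 3 lymphoid or at least 3 fibroblast markers, 0 of 70, 0 of 67, 1 of 62 and 1 of 99 held a Timd4 UMI, at median depths of 2833.5, 3020, 10631 and 2555 UMIs. Among C1q-negative cells with at least 2 of the type 1 dendritic cell genes Xcr1, Clec9a, Cadm1 and Wdfy4, Timd4 was found in 5 of 54 cells (9.26%), 8 of 45 (17.8%), 7 of 35 (20%) and 10 of 39 (25.6%), at median depths of 7117, 8273, 17263 and 5062 UMIs. Each cell with at least 2000 UMIs was also thinned to that number, with C1q read on the thinned counts. Cells with fewer UMIs were left out of the thinned values. In the WT HFD library Timd4 was then seen in 5 of 730 C1q-negative and 5 of 3853 C1q-positive cells. At that depth the share in its C1q-positive cells did not exceed the share in its C1q-negative cells. Among its cells without C1q RNA before thinning, Timd4 was seen in 4 of 35 with at least 2 of these dendritic genes. It was seen in 0 of 147 with none of them. The thinned shares in the WT normal-diet, CKO normal-diet and CKO HFD libraries were 4.87, 6.64 and 0.956% of C1q-positive cells. They were 0.527, 1.61 and 0.565% of C1q-negative cells.

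The label of resident macrophages was set beside Lyve1 and Cd163, which the gate did not use. These markers were chosen with earlier results of these data known, so their levels are a description and no independent check. A Lyve1 UMI was present in 59.6, 67.1, 63.6 and 58.9% of gated cells and in 28.8, 37.8, 12.4 and 23.1% of the cells that passed the same gate with 0 Timd4 UMIs (called Timd4-negative below, 13487 cells). A Cd163 UMI was present in 71.0, 73.9, 72.7 and 86.8% of gated and 49.1, 56.0, 24.9 and 43.1% of Timd4-negative cells. In the lymphoid or fibroblast cells the shares were 0, 0, 0 and 1.01% for Lyve1 and 5.71, 8.96, 1.61 and 2.02% for Cd163. With cells thinned to 2000 UMIs and shallower cells left out, the gated shares for Lyve1 were 44.5, 47.3, 36.4 and 45.9%. The shares of Timd4-negative cells were 19.1, 28.2, 5.73 and 16.9%. Both markers together were found in 86, 169, 12 and 70 gated cells, which is 47.0%, 55.0%, 54.5% and 54.3%. Neither was found in 30, 43, 4 and 11 gated cells. The gate therefore held cells with both markers in every library and also cells in which neither was detected at this depth.

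Cells just inside and just outside the threshold differed for these markers. Lyve1 stood at 138, 228, 63.0 and 134 CPM with 0 Timd4 UMIs, at 380.0, 406, 462 and 333 CPM with exactly 1, and at 468, 429, 215 and 352 CPM with 2 or more. Cd163 stood at 283, 398, 117 and 292, then 461, 506, 507 and 672, then 652, 507, 333 and 528 CPM. The step for both genes lay between 0 and 1 Timd4 UMI, and the level with 2 or more was above that with 1 in some libraries and below it in others.

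The share of kept cells that met the gate was highest on normal diet. It was 4.94% in WT (exact 95% binomial interval 4.26 to 5.69) and 7.14% in CKO (6.38 to 7.95) on normal diet, and 0.473% in WT (0.297 to 0.715) and 1.48% in CKO (1.23 to 1.75) on HFD. These intervals, like all intervals below, cover counting error only. The HFD over normal-diet ratio was 0.0958 (0.0586 to 0.149) in WT and 0.207 (0.167 to 0.255) in CKO. The CKO over WT ratio was 1.44 (1.20 to 1.74) on normal diet and 3.12 (1.98 to 5.16) on HFD. The intervals of the 4 libraries did not overlap.

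With each cell of at least 2000 UMIs thinned to 2000, the shares became 2.84%, 4.31%, 0.109% and 0.810%. Cells with fewer UMIs were left out. The shares were thus of 3030, 3482, 4583 and 7655 cells, from 3705, 4302, 4650 and 8731 kept. The cells then had equal depth, but depth still decided which cells entered. The order of the libraries was the same, and the CKO over WT ratio on HFD was then 7.42 (3.02 to 23.7). It rested on 5 WT HFD cells against 62 CKO HFD cells. At this depth, as given above, Timd4 in the WT HFD library was no more frequent in C1q-positive than in C1q-negative cells. With at least 2 Timd4 UMIs required, the shares were 1.40%, 1.84%, 0.237% and 0.263%, and that ratio was 1.11 (0.521 to 2.53), an interval that includes 1. As a share of C1q-positive cells the values were 7.57%, 9.997%, 0.522% and 1.71%. The exclusion of dividing cells took away 14.7%, 16.3%, 31.2% and 9.72% of the cells with Timd4 and C1q RNA; among all C1q-positive cells 12.99%, 14.5%, 30.04% and 14.1% held Mki67 or Top2a. With dividing cells kept in, the shares were 5.80%, 8.44%, 0.688% and 1.64%.

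**Figure D1:**
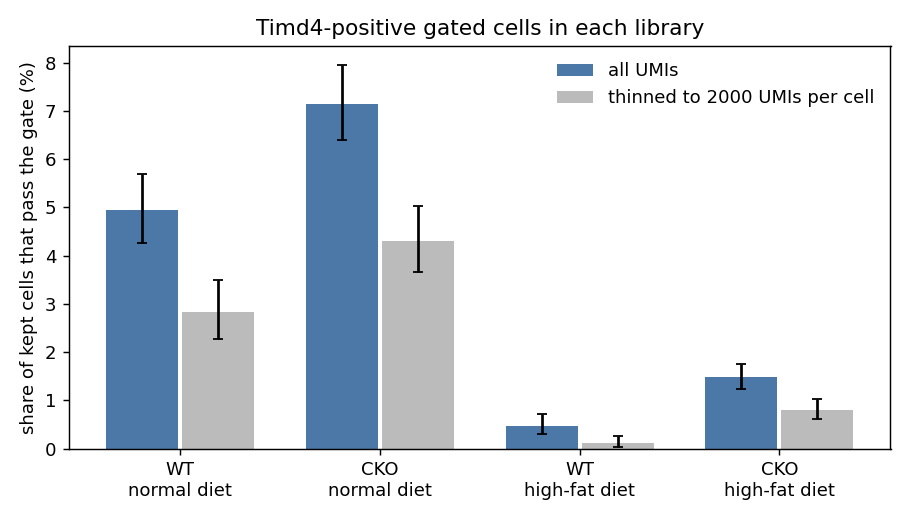
Share of kept cells in the TIM4 gate in each library, in percent, read on all UMIs and after thinning cells to 2000 UMIs. Thinned shares leave out cells with fewer than 2000 UMIs. Bars are shares and whiskers exact 95% binomial intervals for counting error; the 2 normal-diet libraries (4.94% and 7.14% on all UMIs) lie above the 2 HFD libraries (0.473% and 1.48%).

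The gated cells were then compared with the Timd4-negative cells of their own library. UMIs were summed for each library and cell set, and the difference was tested across the 4 libraries with edgeR's quasi-likelihood test, with the library as a block and Benjamini-Hochberg adjustment over 11813 genes. A gene was called at an adjusted p under 0.05. Of all genes tested, 136 (1.15%) rose in gated cells and 70 (0.593%) fell, and the median log2 difference of all genes was -0.02. The gate genes were left out of these counts. The Timd4-negative set can hold cells of the same kind in which no Timd4 molecule was captured. Timd4-negative cells had medians of 3963.5, 3523, 13575.5 and 3664 UMIs, below the 4628, 3893, 17365.5 and 3726 of gated cells, with the widest gap in the WT HFD library. With the Timd4-negative cells matched on total UMIs, 159 of these 206 calls were made again.

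Genes of resident macrophage identity rose together in the gated cells. Of the 26 such genes tested, 21 rose and 0 fell, against 1.15% and 0.593% of all genes, and their median log2 difference was 0.60. The list was drawn up with earlier results of these data known, so its direction is a description. By library the median was 0.59, 0.36, 1.08 and 0.76, largest in the WT HFD library, and 25 or 26 of the 26 genes were higher in gated cells in each library. Without the WT HFD library the median was 0.52 and 19 of the genes rose.

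Lyve1 (chromosome 7, 110850607 to 110863239) was at 408, 414, 327 and 337 CPM in gated cells and 138, 228, 63.0 and 134 CPM in Timd4-negative cells. Every gated value lay above every Timd4-negative value, and the gap was narrowest on the CKO normal diet. The log2 difference was 1.41 ± 0.14 (SE) with an adjusted p of 9.9e-06, and 1.18 without the WT HFD library. Cd163 (chromosome 6, 124304656 to 124330527) was at 522, 506, 412 and 639.6 CPM in gated cells and 283, 398, 117 and 292 CPM in Timd4-negative cells, a log2 difference of 0.93 ± 0.14 (SE) with an adjusted p of 5.4e-04. Folr2, the folate receptor of resident macrophages, was at 553, 542, 523 and 799.9 CPM in gated cells and 308, 416, 191 and 409 CPM in Timd4-negative cells, with a log2 difference of 0.82 (adjusted p = 2.7e-04). Other members of the list that rose were the leukotriene C4 synthase gene Ltc4s (0.81), Gas6, the bridge between phosphatidylserine and the TAM receptors (0.80), the carbonyl reductase gene Cbr2 (0.78), the transglutaminase gene F13a1 (0.64), the lectin gene Clec10a (0.57), the selenium carrier gene Selenop (0.42), the transcription factor gene Maf (0.40), the mannose receptor gene Mrc1 (0.32) and Pf4, platelet factor 4 (0.30).

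Among the ranked genes were 5 lectins of the CD209 family, relatives of the human pathogen receptor DC-SIGN. These genes are close paralogs near each other on chromosome 8 (Cd209a from 3743397, Cd209d from 3871824, Cd209b from 3917655, Cd209f from 4102787 and Cd209g from 4134098), so reads could be split or misplaced between them and each single value is uncertain. The 250 bases before the start that RefSeq lists are shown for Timd4, because it defines the gate, and for the 4 CD209 genes with the largest differences. RefSeq and the gene models used for the positions above place some starts differently: the Cd209g window lies inside the gene model, and the Cd209f, Cd209d and Cd209b windows overlap the 5′ ends of theirs. The sequences are from RefSeq, GRCm38.p6, 5′ to 3′ on the transcribed strand, with capitals for matches to the PU box GAGGAA or the MAF motif TGCTGA on either strand.
Timd4, chr11:46810549-46810798, plus strand: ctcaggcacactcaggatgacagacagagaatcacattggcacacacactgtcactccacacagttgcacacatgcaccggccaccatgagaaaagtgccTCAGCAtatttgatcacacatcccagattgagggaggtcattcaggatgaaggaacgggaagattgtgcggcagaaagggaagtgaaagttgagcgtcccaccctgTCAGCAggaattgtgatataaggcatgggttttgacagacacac
Cd209f, chr8:4105765-4106014, minus strand: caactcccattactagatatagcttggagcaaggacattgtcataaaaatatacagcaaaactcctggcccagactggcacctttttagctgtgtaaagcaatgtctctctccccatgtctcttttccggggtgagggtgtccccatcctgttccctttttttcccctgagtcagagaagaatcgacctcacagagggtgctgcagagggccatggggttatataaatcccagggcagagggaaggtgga
Cd209g, chr8:4134486-4134735, plus strand: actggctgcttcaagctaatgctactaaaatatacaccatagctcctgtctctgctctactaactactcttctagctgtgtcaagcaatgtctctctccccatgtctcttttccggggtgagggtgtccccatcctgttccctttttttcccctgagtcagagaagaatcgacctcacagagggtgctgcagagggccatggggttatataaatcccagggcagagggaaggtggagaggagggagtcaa
Cd209d, chr8:3878500-3878749, minus strand: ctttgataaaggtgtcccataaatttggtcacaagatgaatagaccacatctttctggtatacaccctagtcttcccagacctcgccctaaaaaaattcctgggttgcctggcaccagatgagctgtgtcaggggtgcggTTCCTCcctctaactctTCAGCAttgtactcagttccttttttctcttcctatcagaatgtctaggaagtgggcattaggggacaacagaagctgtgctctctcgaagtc
Cd209b, chr8:3926842-3927091, minus strand: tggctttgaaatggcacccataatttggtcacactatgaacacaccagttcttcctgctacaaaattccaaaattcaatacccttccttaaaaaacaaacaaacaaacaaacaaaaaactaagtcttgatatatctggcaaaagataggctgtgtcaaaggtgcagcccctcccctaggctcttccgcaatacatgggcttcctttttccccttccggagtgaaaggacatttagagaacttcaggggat

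The Cd209f and Cd209g windows held an identical run of 154 bases, which starts at base 97 of the first and base 83 of the second window. No other pair of these windows shared more than 12 bases in a row. The Timd4 window held 2 MAF motifs and no PU box, the Cd209d window 1 of each, and the other 3 windows neither. Over all 32851 RefSeq promoter windows of the same length, 16.1% held the MAF motif and 23.3% the PU box. A match is only a description of these letters, and Lyve1 had no entry in the table.

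Cd209f was at 310.4, 220.3, 364 and 420.4 CPM in gated cells and 144, 119, 32.2 and 74.98 CPM in Timd4-negative cells. Its gated level was highest in the 2 HFD libraries, where its Timd4-negative level was lowest. The log2 difference was 1.83 ± 0.25 (SE) with an adjusted p of 3.4e-04, and 1.40 without the WT HFD library. Cd209b was at 60.4, 57.8, 154 and 69.6 CPM in gated cells and 25.7, 27.3, 6.42 and 9.05 CPM in Timd4-negative cells, with a log2 difference of 2.20 ± 0.37 (SE) with an adjusted p of 0.0022, and 1.51 without the WT HFD library. For Cd209g and Cd209d the differences were 1.75 and 1.72, and for Cd209a 1.19 (adjusted p = 4.8e-04, 6.2e-04 and 0.0016). DESeq2 called Cd209f, Cd209g and Cd209a but not Cd209b or Cd209d (DESeq2 adjusted p = 0.051 and 0.055). The Cd209a call was lost with the Timd4-negative cells matched on total UMIs (edgeR adjusted p = 0.11). All 5 genes were higher in gated cells in all 4 libraries.

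**Figure D2:**
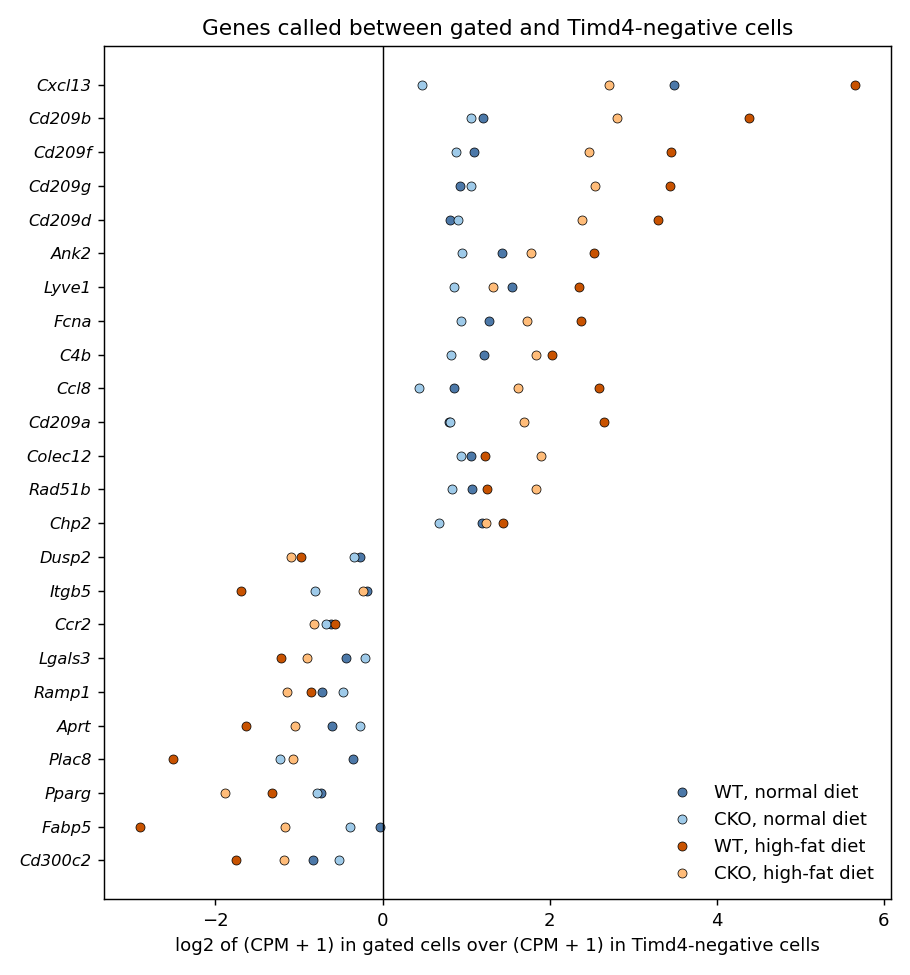
Log2 ratio of (CPM + 1) in gated cells over (CPM + 1) in Timd4-negative cells for the named genes with the highest and lowest differences, with 1 point for each library coloured by genotype and diet. All points of the genes called higher lie right of 0 and all points of those called lower left of it; the 2 HFD libraries lie farthest right for the CD209 genes.

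A few complement genes and a soluble lectin gene rose. Of 18 complement genes tested, 4 rose and 0 fell (median log2 difference 0.15). C4b, a complement component whose counts can mix with its near copy C4a, was at 245, 199, 173 and 251 CPM in gated cells and 105, 113, 41.6 and 69.4 CPM in Timd4-negative cells, a log2 difference of 1.35 ± 0.14 (SE) with an adjusted p of 9.9e-06. C1qc, the partner of the 2 gate genes, differed by 0.28 (adjusted p = 0.037), and it belongs to the same complex as the gate genes C1qa and C1qb. Fcna, ficolin A, which binds microbial sugars, was at 275, 263, 147 and 177 CPM in gated cells and 113, 137, 27.6 and 52.9 CPM in Timd4-negative cells (log2 difference 1.40, SE 0.14, adjusted p = 9.9e-06). The gated values of C4b and Fcna were above the Timd4-negative values in each library.

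Scavenger and endocytic receptors moved in part. Of 17 tested, 6 rose and 1 fell, with a median of 0.20. The collectin scavenger receptor gene Colec12 rose by 1.11, the endothelial and macrophage scavenger receptor gene Stab1 by 0.50 and the endocytic adaptor gene Dab2 by 0.39 on the log2 scale. Of 22 genes for receptors and bridging molecules of dying cell uptake, the process TIM4 serves, 2 rose (Gas6 and Stab1) and 5 fell, and the median was -0.08. Those that fell were Axl (-0.46), the integrin genes Itgav (-0.66) and Itgb5 (-0.70), and Cd300a (-0.40) and Cd300lb (-0.63). DESeq2 called 2 of these 7 genes, Gas6 and Itgav. Mertk, the partner receptor most often paired with TIM4, was at 125, 155, 71.4 and 80.1 CPM in gated cells and 107, 122, 66.1 and 48.7 CPM in Timd4-negative cells and did not pass the test (0.29, adjusted p = 0.22).

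Chemokine genes rose in 4 of 21 cases and fell in 1, Cxcl2 (-0.45). Cxcl3, a chemokine gene outside these 21, fell as well (log2 difference -2.48, adjusted p = 0.0069, edgeR). It was not called with at least 2 Timd4 UMIs required (-2.04). Ccl8, an attractant of monocytes and T cells, was at 350.4, 164, 1285 and 637 CPM in gated cells and 193, 121, 213 and 207 CPM in Timd4-negative cells, a log2 difference of 1.33 ± 0.20 (SE) with an adjusted p of 8.3e-04, although 1 cell held 38.5% of its UMIs in the WT HFD library and DESeq2 did not call it (adjusted p = 0.098). Cxcl13, the attractant of B cells, had the largest increase of the ranked genes named here (log2 difference 2.96, SE 0.41, adjusted p = 3.5e-04) at 109.7, 13.1, 99.0 and 401 CPM in gated cells and 8.89, 9.17, 0.991 and 60.2 CPM in Timd4-negative cells. It came from few cells: 11, 7, 2 and 32 gated cells had any Cxcl13 UMI, and the top cell held 44.2, 28.0, 86.0 and 45.7% of them; DESeq2 gave an adjusted p of 0.054. Ccl7 rose by 0.48. Among the growth factor genes, 2 of 15 rose, Pdgfc (0.72) and Bmp2 (0.69). Of 18 iron and heme genes 3 rose, the transferrin gene Trf (0.44), the metalloreductase gene Steap4 (1.55) and the ceruloplasmin gene Cp (0.80).

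Some genes of monocytes and of the lipid-associated state fell. Of 9 chemokine receptor genes, 3 fell and 0 rose (median -0.37). Ccr2, the receptor by which monocytes leave the marrow and enter tissue, was at 578, 485, 520.3 and 383 CPM in gated cells and 884, 779, 774 and 675 CPM in Timd4-negative cells, with ranges that did not overlap and a log2 difference of -0.73 ± 0.08 (SE) with an adjusted p of 2.3e-05. Cxcr4 (-0.44) and Ccrl2 (-0.51) fell as well, but DESeq2 called neither. Of 17 monocyte markers 4 fell and 1 rose, at a median of -0.38, and Plac8 fell by 0.95 on the log2 scale. By library the median log2 ratio of (CPM + 1) was nearer 0, at -0.10, -0.25, -0.08 and 0.001. In the same order 5, 2, 6 and 9 of the 17 markers were higher in gated cells.

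Of 23 genes of the lipid-associated macrophage, 5 fell and 0 rose, with a median of -0.38. The median by library was -0.02, 0.02, -0.94 and -0.51, so the difference lay in the 2 HFD libraries and was near 0 on normal diet; without the WT HFD library it was -0.20. Trem2, a lipid receptor, was at 65.5, 45.2, 149.7 and 107 CPM in gated cells and 62.7, 63.0, 439 and 266 CPM in Timd4-negative cells, and the gated value was not lower in the WT normal-diet library (log2 difference -0.91, SE 0.18, adjusted p = 0.0088). Without the CKO HFD library Trem2 differed by -0.75 and was not called, and DESeq2 did not call it (adjusted p = 0.40). Lgals3, galectin-3, was at 575, 537, 1531 and 1185 CPM in gated cells and 779, 619, 3564 and 2222 CPM in Timd4-negative cells (log2 difference -0.76, SE 0.12, adjusted p = 0.0016). Fabp5, a fatty acid carrier, was at 85.9, 56.3, 66.8 and 162 CPM in gated cells and 87.5, 73.8, 505 and 364 CPM in Timd4-negative cells, nearly equal in WT on normal diet, with -1.06 ± 0.25 (SE) with an adjusted p of 0.028; the call was lost without the CKO HFD library, where the difference was -0.99, with DESeq2, and with the comparator matched on UMIs. Lpl, lipoprotein lipase, fell by 0.67 and Spp1, osteopontin, by 2.52 on the log2 scale, the latter from levels of at most 71.0 CPM. Pparg, the nuclear receptor of lipid storage, was at 41.7, 35.8, 50.7 and 9.07 CPM in gated cells and 70.3, 62.4, 128 and 36.2 CPM in Timd4-negative cells (log2 difference -1.05, SE 0.15, adjusted p = 4.2e-04).

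**Figure D3:**
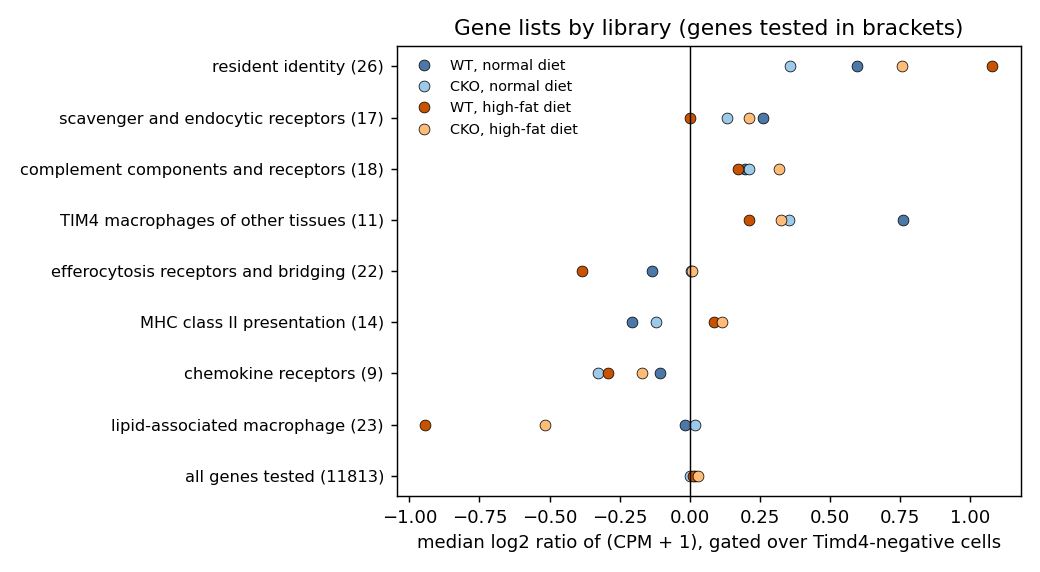
Median log2 ratio of (CPM + 1) in gated over Timd4-negative cells for 8 gene lists and all genes tested, 1 point for each library. The resident identity list lies right of 0 in each library (0.36 to 1.08), the lipid-associated list left of 0 in the 2 HFD libraries (-0.94 and -0.51) and near 0 in the 2 normal-diet libraries.

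Calls in several other programmes stand beside those over all genes, of which 1.15% rose and 0.593% fell. Of 14 genes of MHC class II presentation, which macrophages use to show antigen to T cells, 2 fell (H2-DMb1, -0.34, and Ctss, -0.42) and 0 rose. No call was made among 22 immediate early and dissociation genes, 23 genes of fatty acid oxidation and respiration or 21 of glycolysis and hypoxia. With 1.74% of all genes called, a list of this size can hold 0 calls without differing from other genes. In edgeR 6, 6 and 8 genes of these lists had an unadjusted p under 0.05, as had 1453 of all 11813 genes. DESeq2 called 0, 0 and 0. Of 11 genes that mark TIM4-bearing macrophages of other tissues, 3 rose and 0 fell, at a median of 0.43, among them Cd5l (2.35). With the gated cells that held at least 2 cavity markers left out, Cd5l differed by 0.49 and was not called (adjusted p = 0.88). Of 17 genes of alternative activation 3 rose and 2 fell, among them Chil3 (-2.46). Of 32 transcription factor genes, Klf2 (0.32) and Maf rose. Of 19 interferon-stimulated genes only Rsad2 rose (1.24), and its difference was -0.38 when at least 2 Timd4 UMIs were required.

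Some markers of other cell types differed between gated and Timd4-negative cells. For the serous cavity markers the median log2 ratio by library was 1.01, 1.20, -0.91 and -0.29, so its sign differed between the diets. The 17 serous cavity markers made up 0.216, 0.234, 0.0953 and 0.0662% of the UMIs of gated cells and 0.243, 0.224, 0.106 and 0.115% of those of Timd4-negative cells, and 4 of them rose, among them Prg4 and Alox15. Without the cells that held at least 2 cavity markers Prg4 differed by -0.30 and was not called, and Alox15 did not pass the filter on low counts. Prg4 UMIs were found in 18 gated cells (7, 9, 1 and 1). Vsig4, a complement receptor of resident macrophages in several organs, was at 55.3, 40.5, 2.30 and 10.6 CPM in gated cells and 6.12, 6.20, 1.46 and 1.85 CPM in Timd4-negative cells (log2 difference 2.71, SE 0.26, adjusted p = 7.4e-06) and was detected in 18, 17, 1 and 4 gated cells. Dendritic cell markers made up 0.124, 0.113, 0.0728 and 0.0564% of gated and 0.0846, 0.0822, 0.0278 and 0.0298% of Timd4-negative UMIs; 5 of 13 rose and 0 fell, among them Flt3 (1.68) and Clec9a (2.46). Of the gated cells, 31 held at least 2 of the 4 type 1 dendritic cell genes and 17 at least 2 cavity markers. By library the 31 were 10 of 183, 14 of 307, 3 of 22 and 4 of 129 gated cells. Of Timd4-negative cells 4.93, 3.96, 9.25 and 1.13% held as many dendritic genes, so such cells were found in both sets. At least 2 cavity markers were held by 3.83, 2.93, 0 and 0.775% of gated and 1.31, 0.783, 0.583 and 0.251% of Timd4-negative cells. With the 17 cells and their like left out, 226 genes were called, and with the 31 left out 339; of the 206 main calls, 192 and 199 remained in these 2 cases. The 18 monocyte markers made up 0.813, 0.877, 0.774 and 1.07% and 0.886, 0.936, 0.667 and 1.21% of UMIs, and the 15 fibroblast markers 0.0183, 0.0177, 0.0186 and 0.0124% and 0.0181, 0.0188, 0.0419 and 0.0244%. Lymphoid markers made up at most 0.00771% of gated UMIs, and Cd3e was at 0 in all gated cells. No call was made among 4 lymphoid, 6 endothelial, 7 adipocyte and 2 granulocyte markers that passed the filter, where 1.74% of all genes were called. Of these markers 2, 2, 0 and 1 had an unadjusted p under 0.05 in edgeR, and DESeq2 called 0, 0, 0 and 0. The part of these cell types in the results was not tested beyond leaving out the 2 sets of cells.

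The gated cells also varied among themselves. A Ccr2 UMI was found in 45.9, 41.7, 63.6 and 44.2% of them, against 62.3, 56.5, 82.8 and 66.1% of Timd4-negative cells and 60.0, 65.7, 27.4 and 25.3% of the lymphoid or fibroblast cells, some of which (lymphocytes) express it. The gated cells with Ccr2 were deeper, at median depths of 8744, 9166, 19808 and 6219 UMIs against 3256, 2854, 16416 and 3001 in those without. Lyve1 stood at 328, 259, 211 and 250.05 CPM in the former and 589, 737, 623 and 470.5 CPM in the latter. Lyve1 was thus lower in the Ccr2-positive gated cells of each library, and the part of depth in this was not tested. Gated cells with a Lyve1 UMI had Cd163 at 539, 552, 593 and 753 CPM, and those without at 483, 377, 95.2 and 459 CPM. For Cd74, the invariant chain of MHC class II, the values were 7944, 7335, 13628 and 17084 CPM with Lyve1 and 9307, 9714, 19522 and 21889 CPM without. In each library Cd163 was higher and Cd74 lower in the cells with Lyve1.

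The closest other cells were those of the same gate with 0 Timd4 UMIs and at least 1 Lyve1 UMI, of which there were 3249. Against them the gated cells differed little: of 10369 genes 15 (0.145%) rose and 1 (0.00964%) fell, while 747 had an unadjusted p under 0.05. Cd163 was at 522, 506, 412 and 639.6 CPM in gated cells and 450.1, 581, 501 and 542 CPM in the Lyve1-positive cells, a log2 difference of 0.01 with an adjusted p of 1. Of 25 resident identity genes 0 rose and 1 fell, at a median of -0.19, and 17 of the 25 had an unadjusted p under 0.05 (edgeR) and 1 was called by DESeq2. The difference seen against all Timd4-negative cells was thus not seen against cells chosen by Lyve1. Lyve1 is itself a resident identity gene and was required of every comparator cell but not of gated cells. The part of that choice in the result was not tested. The gene that fell was Retnla, a secreted product of alternative activation, at 9373, 12022, 10874 and 16909.5 CPM in gated cells and 12083, 13900.5, 17150.4 and 20682 CPM in Lyve1-positive cells (log2 difference -0.37, SE 0.06, adjusted p = 0.025). The Retnla call was lost when the CKO HFD, the WT normal-diet or the CKO normal-diet library was left out, with differences of -0.42, -0.37 and -0.43. Cd209f was at 310.4, 220.3, 364 and 420.4 CPM in gated cells and 299, 223, 202 and 197 CPM in Lyve1-positive cells, nearly equal on normal diet and higher in gated cells on HFD, and did not pass the test (0.48, adjusted p = 0.37).

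Genes that rose over the Lyve1-positive cells were few. Cd9, a tetraspanin listed with the lipid-associated state, was at 89.3, 88.9, 154 and 93.7 CPM in gated cells and 48.9, 43.9, 33.7 and 47.3 CPM in Lyve1-positive cells, higher in gated cells in each library (log2 difference 1.22, SE 0.17, adjusted p = 0.0058). Without either CKO library in turn Cd9 was not called, although it differed by 1.28 and 1.32. Cst3, cystatin C, rose by 0.44, Cd209a by 0.68 and Cxcl13 by 2.47 on the log2 scale. Vsig4 (2.02), Cd5l (3.16), Prg4 (2.67), Alox15 (2.42), Saa3 (3.48) and Flt3 (2.84) rose too. With cavity-type cells left out, 8 of the 16 genes were called again. In that setting Cd5l, Prg4 and Alox15 did not pass the filter on low counts, Vsig4 (adjusted p = 0.077) and Saa3 (adjusted p = 0.13) were not called, and Flt3 was. With type 1 dendritic-type cells left out 10 of the 16 were called again, without Flt3 (adjusted p = 0.25), Cst3 or Cd209a. Only 3 of the 16 were called again when the CKO HFD, the WT normal-diet or the CKO normal-diet library was left out, and DESeq2, which gave no adjusted p for 14 of them, called the other 2, Cst3 and Retnla.

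**Figure D4:**
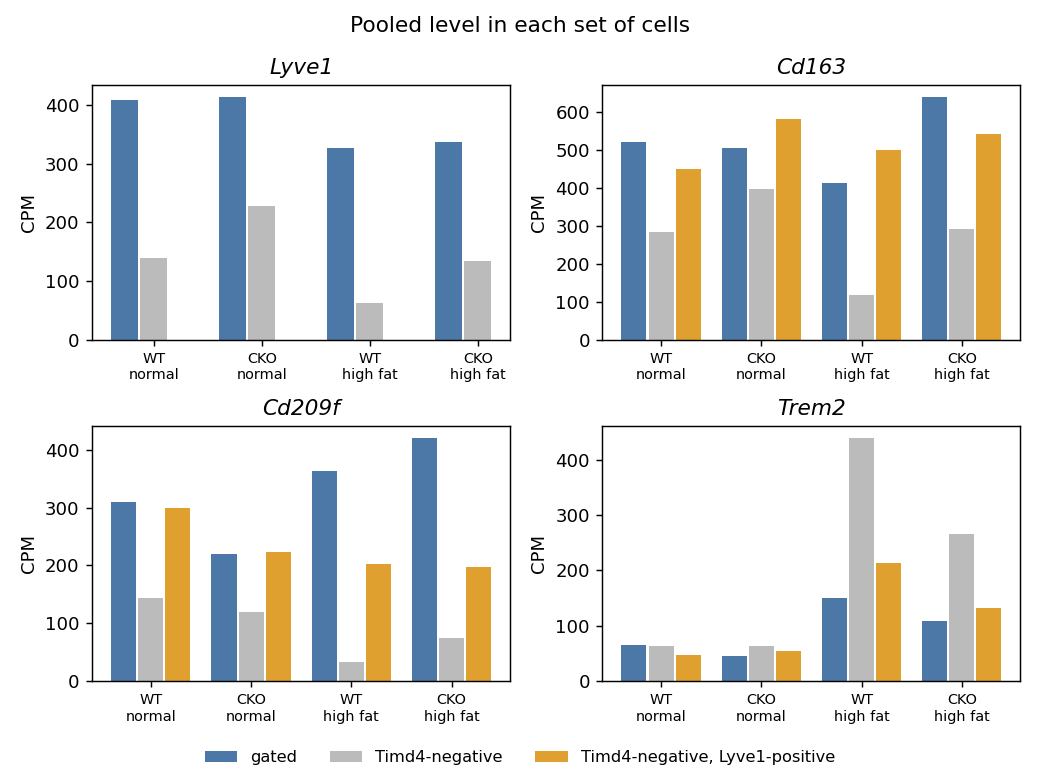
Pooled level (CPM) of Lyve1, Cd163, Cd209f and Trem2 in gated cells, Timd4-negative cells and Timd4-negative Lyve1-positive cells of each library, as bars from 0; the Lyve1 panel omits the set chosen by Lyve1. Cd163 in gated cells is close to that of the Lyve1-positive cells and above that of all Timd4-negative cells in each library.

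Whether the difference between gated and Timd4-negative cells changed with diet or genotype was tested in 1 fit over the 8 sums, with 1 residual degree of freedom before moderation, so these calls rest on the spread borrowed across genes. The difference changed with diet for 92 genes (0.779% of 11813) and with genotype for 12 (0.102%), with 706 and 324 genes at an unadjusted p under 0.05.

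On HFD the CD209 genes stood farther above the Timd4-negative cells. The log2 difference was larger on HFD by 2.53 (adjusted p = 5.8e-15) for Cd209b, 1.90 (adjusted p = 9.4e-19) for Cd209d, 1.90 (adjusted p = 3.7e-20) for Cd209f and 1.92 (adjusted p = 4.3e-15) for Cd209g. In Timd4-negative cells Cd209f on HFD was 0.223 of its normal-diet level in WT and 0.631 in CKO. In gated cells the same ratios were 1.17 (0.966 to 1.42) and 1.91 (1.63 to 2.23). Gated Cd209b was 2.55 (1.80 to 3.62) times its normal-diet level in WT, against 0.249 in Timd4-negative cells. Gated CD209 levels on HFD were thus at or above those on normal diet for Cd209b, Cd209d, Cd209f and Cd209g, and below them for Cd209a (0.724 in WT and 0.397 in CKO).

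Of the 26 resident identity genes, the CD209 genes among them, the difference was larger on HFD for 8 and smaller for 0, where 0.779% of all genes changed in either direction; with the Timd4-negative cells matched on UMIs 6 of the 8 were called again. For Cd163 the difference was larger on HFD by 0.77 (adjusted p = 0.0011), with gated ratios of 0.789 (0.664 to 0.934) in WT and 1.26 (1.12 to 1.42) in CKO against 0.413 and 0.735 in Timd4-negative cells. Ccl8 gave 1.39 (adjusted p = 4.7e-13), Stab1 0.71 (adjusted p = 0.036, and 0.074 without cavity-type cells) and Retnla 0.50 (adjusted p = 5.3e-04). Fcna (0.87), C4b (0.86), Gas6 (0.78), Cd209a (1.33) and Cxcl13 (2.51) were called too, and lost the call when the Timd4-negative cells were matched on total UMIs. For Lyve1 the change with diet did not pass the test (0.55, adjusted p = 0.17). Gated Lyve1 on HFD was 0.801 (0.659 to 0.968) of its normal-diet level in WT and 0.815 (0.699 to 0.947) in CKO, and 0.456 and 0.587 in Timd4-negative cells.

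Lipid genes changed the other way. Of 23 genes of the lipid-associated macrophage the log2 difference moved down on HFD for 11 and up for 0. For these 11, gated cells thus lay lower relative to Timd4-negative cells on HFD than on normal diet. With the matched comparator 7 of the 11 were called again. The log2 difference changed on HFD by -1.96 (adjusted p = 1.0e-16) for Fabp4, -1.74 (adjusted p = 5.1e-12) for Fabp5, -1.29 (adjusted p = 7.1e-06) for Trem2, -2.94 (adjusted p = 1.3e-10) for Gpnmb and -0.82 (adjusted p = 2.9e-06) for Lgals3. Gated Trem2 on HFD was 2.29 (1.62 to 3.22) times its normal-diet level in WT and 2.37 (1.71 to 3.29) times in CKO, against 6.997 and 4.21 in Timd4-negative cells. Trem2 was thus higher on HFD in gated cells too, by a smaller factor. Fabp5 in gated cells was 0.777 (0.496 to 1.18) in WT, an interval that includes 1, and 2.88 (2.18 to 3.80) in CKO, against 5.78 and 4.93. These Fabp5 ratios rest on few cells: 1 cell held 43.9% of the gated UMIs in the CKO HFD library and 1 cell 42.6% in the WT normal-diet library. Fabp4, the fatty acid-binding protein of fat cells and macrophages, was 0.4998 (0.309 to 0.777) in WT and 4.61 (3.64 to 5.85) in CKO, against 5.11 and 8.89.

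**Figure D5:**
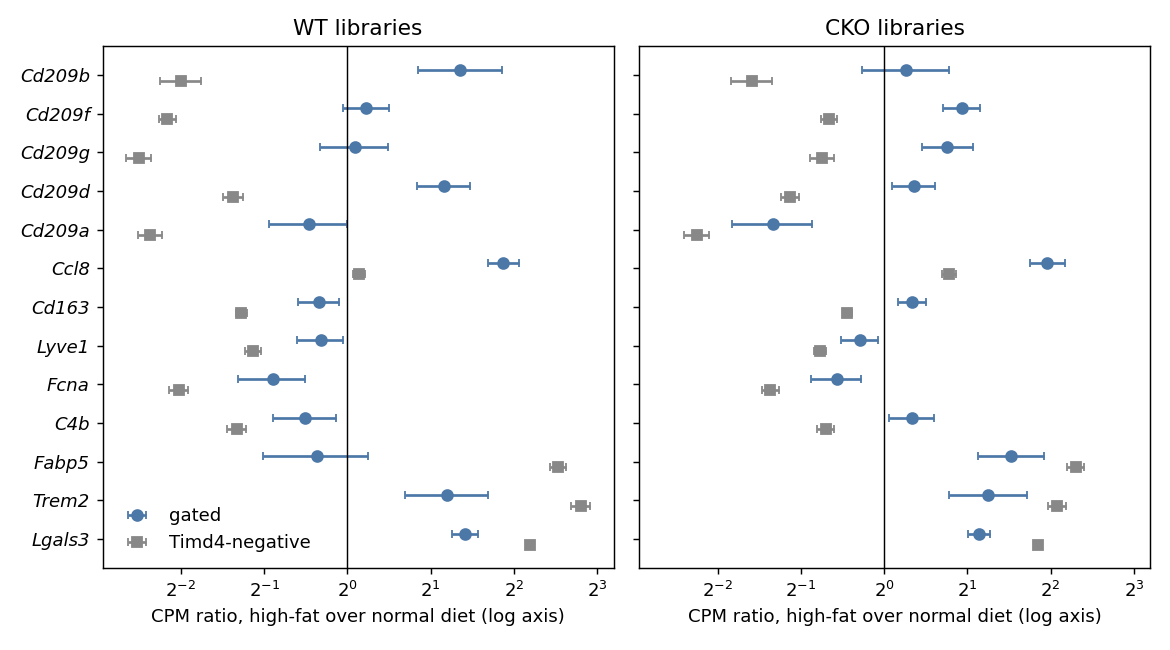
CPM ratio of HFD over normal diet on a log axis for 13 genes, in gated and Timd4-negative cells, with WT libraries on the left and CKO libraries on the right; whiskers are exact 95% intervals for counting error. For the upper 10 genes the gated point lies right of the Timd4-negative point in both panels, and for Fabp5, Trem2 and Lgals3 it lies left of it.

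Between the 2 HFD and 2 normal-diet libraries taken as levels, without a test, many genes differed within gated cells. A gene was counted when the library with more of it reached 50 CPM and 30 UMIs and the ratio of (CPM + 10) passed 1.5. In WT 345 genes (10.0% of 3433) were higher on HFD and 938 (27.3%) lower, and in CKO 506 (13.8% of 3660) were higher and 1494 (40.8%) lower. The median log2 ratio of all counted genes was -0.26 in WT and -0.41 in CKO, near the -0.31 and -0.47 of Timd4-negative cells, so most genes lay lower relative to total UMIs in both cell sets. With TMM scaling the counts were 459 higher and 690 lower in WT, and 833 higher and 910 lower in CKO. Among the highest ratios was Ccl8, at 1285 against 350.4 CPM in WT and 637 against 164 CPM in CKO, with ratios of 3.67 (3.22 to 4.17) and 3.89 (3.35 to 4.52). C3, the central complement component, was 7.06 (4.23 to 12.2) times higher on HFD in CKO, and Ccl12 4.77 (4.06 to 5.61) times. In WT Ccl12 was 175 against 183 CPM, a ratio of 0.957 (0.727 to 1.25), and C3 had 13 UMIs on HFD and 12 on normal diet, at 29.9 and 10.2 CPM. Rnase2a had 1, 5, 112 and 229 UMIs in gated cells, a ratio of 303 (53.3 to 12081) in WT that rests on 1 UMI and of 132 (55.6 to 409.5) in CKO. Hspa1a, a heat shock gene that cell dissociation can induce and whose counts can mix with Hspa1b, was 4.49 (3.35 to 6.05) in WT. The lowest ratios included Prg4, at 0.0246 (0.000618 to 0.14) in WT and 0.0152 (0.000383 to 0.0858) in CKO, and Plac8, at 0.0330 (0.000826 to 0.189) in WT, each from 1 UMI on HFD. Slc40a1, the iron exporter ferroportin, had 73, 117, 0 and 1 UMIs, and Saa3 had 135, 267, 0 and 134.

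Between genotypes on normal diet few genes of the gated cells passed 1.5-fold. Of 3617 genes counted by the same rule, 15 (0.415%) were higher in CKO and 36 (0.995%) lower. With at least 2 Timd4 UMIs required, 158 of 3114 genes were higher and 149 lower. Of 26 resident identity genes 0 passed 1.5-fold in either direction, at a median log2 ratio of -0.02. At the shares of all genes a list of this size can give 0, so this does not set the resident genes apart. Lyve1 was 414 against 408 CPM, a CKO over WT ratio of 1.01 (0.904 to 1.14), and Cd163 was 506 against 522 CPM, a ratio of 0.970 (0.875 to 1.07). The same ratios in Timd4-negative cells were 1.65 and 1.41. For Lyve1 the gated-against-negative difference changed in CKO by -0.85 (adjusted p = 0.0045), and this call was lost with the comparator matched on UMIs (adjusted p = 0.35).

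Chemokine genes were among those lower in CKO on normal diet. Of the 17 counted, 7 were lower and 0 higher, against 0.995% and 0.415% of all genes. Il10, the anti-inflammatory cytokine, was 21.6 against 122 CPM, a ratio of 0.176 (0.121 to 0.251), and 0.359 in Timd4-negative cells. Ptgs2, the inducible cyclooxygenase gene, had a ratio of 0.256 (0.167 to 0.387), and Egr3, an immediate early gene, of 0.378 (0.292 to 0.486). For the chemokines Ccl8, Ccl7, Ccl2 and Ccl3 the ratios were 0.467 (0.401 to 0.542), 0.492 (0.445 to 0.543), 0.661 (0.607 to 0.721) and 0.408 (0.312 to 0.531), and 0.628, 0.688, 0.775 and 0.639 in Timd4-negative cells. Over both diets the gated-against-negative difference changed in CKO by -0.71 for Ccl8, -0.80 for Ccl24, -2.61 for Ccl22 and -3.54 for Cxcl13, and by 2.03 for Ccl17 and 3.68 for Ccl5 (adjusted p = 0.031, 0.0081, 0.0022, 3.9e-27, 0.034 and 1.7e-08). The other genes called were Lyve1, Ptgs2, Slpi, Gdf15, Arg1 and Mucl1. With the Timd4-negative cells matched on UMIs 4 of the 12 were called again, Cxcl13, Ccl22, Ptgs2 and Mucl1, while Ccl8 (adjusted p = 0.066), Ccl24 (0.26), Ccl17 (1.00) and Ccl5 (1.00) were not. Slpi and Arg1 were not called without cavity-type cells. Ccl22 and Cxcl13 had ratios of 0.110 (0.0560 to 0.200) and 0.120 (0.0748 to 0.185), with the top cell holding 80.8% and 44.2% of the WT UMIs.

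Of the genes higher in CKO on normal diet, Mmp12, the macrophage elastase gene, was 137 against 53.6 CPM, a ratio of 2.56 (1.94 to 3.43), while in Timd4-negative cells it was 0.455. These Mmp12 UMIs came from 11 CKO and 10 WT gated cells, and the top cell held 31.4% and 47.6% of them. Fkbp5, a target of the glucocorticoid receptor, had 2.22 (1.51 to 3.35) in gated and 2.50 in Timd4-negative cells, and Hspa1b 2.59 (1.85 to 3.70) and 2.72. Slpi, a protease inhibitor gene, had 6.39 (4.20 to 10.2), but 1 cell held 84.3% of its UMIs in CKO. For Prdm1 the ratio was 1.10 (0.682 to 1.82), an interval that includes 1.

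On HFD the genotype comparison set 129 CKO cells against the 22 deep cells of the WT library. Of 2781 genes counted, 371 (13.3%) were higher in CKO and 603 (21.7%) lower, and with TMM scaling 629 were higher and 404 lower, so the split between directions depended on the scaling. Lyve1 was 337 against 327 CPM, a ratio of 1.03 (0.832 to 1.28), and 2.12 in Timd4-negative cells. Cd163 at 1.55 (1.30 to 1.86) and Folr2 at 1.53 (1.31 to 1.80) times were higher in CKO in gated cells, and by 2.51 and 2.15 times in Timd4-negative cells. Il10 was 18.1 against 89.8 CPM, a ratio of 0.202 (0.0963 to 0.394), on the same side as on normal diet. Of 14 chemokine genes, 8 were higher in CKO and 1 lower, the reverse of the balance on normal diet, which was not tested. Their median log2 ratio was 1.06 in gated cells and 0.64 in Timd4-negative cells, so both sets lay on the same side. The ratio of Ccl4 was 7.97 (5.16 to 12.9) and that of Ccl8 0.496 (0.436 to 0.563) in gated cells. Fabp4 was 5.17 (3.37 to 8.27). Gdf15, a stress cytokine gene, was 18.0 (5.93 to 88.8) from 3 UMIs in WT, and Saa3 had 134 UMIs in 3 CKO cells and 0 in WT. Among the lowest were Aldh1a2, a retinoic acid synthesis gene, at 0.0386 (0.00450 to 0.151), Dcstamp, a cell fusion gene, at 0.0876 (0.0403 to 0.170), and Nr4a3, an immediate early nuclear receptor gene, at 0.0691 (0.0244 to 0.160).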

How the data were processed

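The authors deposited, for each library, a filtered matrix of UMI counts per gene and cell barcode with 32285 genes, made with Cell Ranger 7.0.0 per the file headers, on GRCm38 per the submitters' processing notes. The labels used here do not say if intronic reads entered these counts. Deposited totals ranged from 21829741 to 74879066 UMIs. Cells were kept from 500 UMIs and 300 genes upward and up to 10% mitochondrial UMIs. Scrublet's automatic threshold marked 0 to 4 cells a library and had not worked, so no doublets were removed; an alternative removed the highest scores at 0.8% for each 1000 cells.

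Counts were summed per library and cell set and tested with edgeR 4.0.16 (R 4.3.3; TMM, its default filter on low counts, library as a block, 3 residual degrees of freedom, Benjamini-Hochberg). The 4 libraries differ in genotype and diet, so p-values measure the spread of the within-library difference over them; that each came from separate animals is not stated. On simulated data with 200 genes changed 2-fold, the comparison with Timd4-negative cells recovered 92.5% of them and that with Lyve1-positive cells 87.0%. There were 3 and 5 false calls among 11862 and 10432 genes. The simulation gave every gene the same assumed spread and changed only genes above a level floor. These rates therefore need not hold for the real counts. Between libraries there is no test: CPM ratios have exact conditional binomial 95% intervals, and shares have Clopper-Pearson intervals, for counting error only.

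Genes named are the marker genes and Prdm1, the 15 highest and 10 lowest called differences with at least 50 CPM and 1 direction in all libraries, the 8 highest and lowest against Lyve1-positive cells, members of the fixed lists that were called or among the 4 most abundant, and the 6 highest and lowest ratios of each pair of libraries; mitochondrial, ribosomal, immunoglobulin and predicted genes were left out, and 1 gene that met the rule is not reported here. The members and lists were chosen with earlier results of these data known. Alternatives were DESeq2 1.42.0, no filter, at least 2 Timd4 UMIs, thinning, a 5% mitochondrial limit, doublet removal, a depth-matched comparator, TMM or another pseudocount for ratios, and each library left out. Gene positions are from GENCODE M21 (99.8% of gene identifiers matched) and promoters from RefSeq.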

Additional observations from a re-analysis of the deposited data

Results flagged for a closer look

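The difference between gated and Timd4-negative cells changed with diet for 92 genes and with genotype for 12 by the interaction test, and these are listed for that reason. Among the named genes it was larger on HFD for Cd209b (2.53), Cxcl13 (2.51), Cd209g (1.92), Cd209f (1.90), Cd209d (1.90), Ccl8 (1.39), Cd209a (1.33), Fcna (0.87), C4b (0.86) and Cd163 (0.77), in log2 units. It was more negative on HFD for Fabp5 (a change of -1.74), Aprt (-0.97), the gene of adenine salvage, and Lgals3 (-0.82). In CKO it was smaller for Cxcl13 (-3.54), Lyve1 (-0.85) and Ccl8 (-0.71). With the Timd4-negative cells matched on UMIs, the change with diet was no longer called for Cxcl13, Cd209a, Fcna and C4b (adjusted p = 0.95, 0.15, 0.51 and 0.69, edgeR), nor that with genotype for Lyve1 and Ccl8 (0.35 and 0.066). Each rests on 1 library for each combination of genotype and diet. The counts for Cxcl13 came from 11, 7, 2 and 32 gated cells in the WT normal-diet, CKO normal-diet, WT HFD and CKO HFD libraries.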

How the results depend on the processing

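Against Timd4-negative cells 206 genes were called; 158 to 205 of these were called again with DESeq2, a 5% mitochondrial limit, top Scrublet scores removed, a depth-matched comparator, cavity-type or dendritic-type cells left out, or no filter, and 104 with at least 2 Timd4 UMIs. The count was 339 with type 1 dendritic-type cells left out and 422 with no filter, and 81 to 273 with 1 library left out (81 without WT normal diet, 108 without CKO HFD). Against Lyve1-positive cells the 16 calls became 58 with at least 2 Timd4 UMIs, 8 and 10 with cavity-type and dendritic-type cells left out, 178 with no filter, and 4 to 27 with 1 library left out; DESeq2 called 2 of the 16 and gave no adjusted p for the other 14. In the order WT normal diet, CKO normal diet, WT HFD and CKO HFD, the gated share in percent was 1.40, 1.84, 0.237 and 0.263 with at least 2 Timd4 UMIs, 2.84, 4.31, 0.109 and 0.810 thinned to 2000 UMIs, 2.97, 4.51, 0.109 and 0.823 thinned with dividing cells kept in, and 1.57, 2.50, 0.0869 and 0.484 thinned to 1000 UMIs. On normal diet it was 7.57 and 9.997 among C1q-positive cells and 5.80 and 8.44 with dividing cells kept in. The CKO over WT ratio of the share on HFD was 1.11 with at least 2 Timd4 UMIs and, thinned to 2000, thinned with dividing cells, and thinned to 1000 UMIs, 7.42, 7.54 and 5.57. The thinned ratios rest on 5, 5 and 4 WT HFD cells. The HFD over normal-diet ratio in WT was 0.0384, 0.0367 and 0.0555 in these 3 thinned cases, and 0.169 in WT and 0.143 in CKO with at least 2 Timd4 UMIs. The 51 genes past 1.5-fold between genotypes on normal diet became 82 with a pseudocount of 1 and 307 with at least 2 Timd4 UMIs, and the 974 on HFD became 475 with the latter. All share ratios kept their direction. The change with genotype fell from 12 to 4 genes with the matched comparator; this fit could not be made with a library left out. Among the named genes, Rsad2 (-0.38 with at least 2 Timd4 UMIs) and Prg4 (-0.30 without cavity-type cells) reversed. The settings on cavity-type, dendritic-type and dividing cells, and the matched comparator for the change with diet or genotype, were chosen after seeing the data. Of 1130 values for named genes, 918 kept their direction and call, and 210 kept only their direction; the cause was not tested beyond the fewer cells or samples of each setting. No paired analysis was possible because each group is 1 library; the library term pairs the cell sets.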

Other observations

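Genes of the lysosome and of metal handling in the gated cells give further values. Counts against Timd4-negative cells stand beside the 1.15% of all genes that rose and the 0.593% that fell. Of 30 lysosomal genes, 1 rose and 2 fell against Timd4-negative cells, with Psap, the precursor of the saposins, at 2478, 2620.0, 1892 and 1583 CPM in gated cells and 3017, 2926, 2659 and 2266 CPM in Timd4-negative cells (-0.42). Of 15 metallothionein and glucocorticoid response genes 2 rose, and Mt2, a metal-binding protein, was at 220.3, 197, 92.1 and 222 CPM in gated cells and 139.7, 131, 55.2 and 148 CPM in Timd4-negative cells (log2 difference 0.57, SE 0.09, adjusted p = 0.0013). Mt1 was 4379 against 857 CPM in gated cells on HFD against normal diet in CKO, a ratio of 5.11 (4.81 to 5.43), and 4.79 in Timd4-negative cells. In WT it was 1160 against 1130 CPM, a ratio of 1.03 (0.925 to 1.14), and 1.17 in Timd4-negative cells. Of 23 genes of survival and self-renewal, 2 rose and 1 fell; Csf1r, the receptor for the growth factor macrophages depend on, was at 528, 437, 486 and 789 CPM in gated cells and 416, 419.9, 518 and 586 CPM in Timd4-negative cells and did not pass the test (0.13, adjusted p = 0.64).

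MHC class II genes were mixed between diets within gated cells. Of 10 counted in CKO, 4 were past 1.5-fold higher on HFD and 2 lower, against 13.8% and 40.8% of all genes, and of 12 in WT 4 were higher and 3 lower, against 10.0% and 27.3%. The 4 that were higher in CKO were Cd74 and the class II chain genes H2-Ab1, H2-Eb1 and H2-Aa. In CKO Cd74 was 18937 against 7962 CPM, a ratio of 2.38 (2.32 to 2.44), and H2-Ab1 7352 against 3101 CPM, a ratio of 2.37 (2.28 to 2.46). Timd4-negative cells of the same libraries gave 2.09 and 1.96, and in WT the gated ratios were 1.89 (1.83 to 1.95) and 1.70 (1.62 to 1.79).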
